A study of Homo sapiens with 12 samples.

Results

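Transcripts of 10 genes of the structural maintenance of chromosomes (SMC) machinery were followed in 143B cells, an established human osteosarcoma line: SMC1A, SMC3, RAD21, STAG1 and STAG2 of cohesin, the cohesin loader NIPBL, SMC2 and SMC4 of condensin, and SMC5 and SMC6 of the SMC5/6 complex. The genes were taken by symbol from the 56140 gene symbols of each file, and all 10 were found. SMC3 was chosen by its measured fall in cells given both drugs. The other 9 genes were listed as SMC ATPases, cohesin subunits or cohesin loader, with earlier results of these data known. Every comparison that holds cells given both drugs is therefore given for the 10 genes as a description, with no test. The cells received ceritinib plus crenolanib at 1 µM each (the combination), ceritinib alone at 1 µM, crenolanib alone at 1 µM, or DMSO, the solvent, for 48 h, with 3 biological replicates per group per the labels. The line is labelled wild-type, and all 12 libraries come from this single line, so no other osteosarcoma is represented. Ceritinib is a kinase inhibitor made against ALK, and crenolanib is a kinase inhibitor made against PDGF receptors and FLT3.

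SMC proteins are long coiled-coil ATPases that work as pairs and form rings which hold or move along DNA. In cohesin, SMC1A and SMC3 pair, the kleisin RAD21 closes the ring, STAG1 or STAG2 binds the kleisin, and NIPBL loads the ring onto chromatin, where it holds sister chromatids together and forms loops. In condensin, SMC2 and SMC4 pair and compact mitotic chromosomes, and SMC5 and SMC6 pair in a complex known for roles in DNA repair and replication.

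The SMC ATPases share a Walker A motif, a loop near the start of the protein that binds the phosphates of ATP. The coding stretch of each is shown because it is the part these genes have most plainly in common, and because base composition, which differs between them, is set beside their levels later. Capitals mark the 24 bases that encode the motif, with 4 codons on either side, on the coding strand of the reference (hg38, GENCODE release 29), 5′ to 3′.
SMC1A: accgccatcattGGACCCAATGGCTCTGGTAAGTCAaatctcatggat
SMC3: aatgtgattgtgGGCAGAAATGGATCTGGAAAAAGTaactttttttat
SMC2: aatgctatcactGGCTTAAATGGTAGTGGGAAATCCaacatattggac
SMC4: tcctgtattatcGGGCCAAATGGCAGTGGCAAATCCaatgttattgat
SMC5: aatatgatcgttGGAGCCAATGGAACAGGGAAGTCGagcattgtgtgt
SMC6: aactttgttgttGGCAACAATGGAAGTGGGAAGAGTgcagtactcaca
The SMC1A stretch is split between exon 1 (chrX:53422492-53422519, minus strand) and exon 2 (chrX:53415150-53415169), and the SMC3 stretch between exon 2 (chr10:110569004-110569013, plus strand) and exon 3 (chr10:110573707-110573744). The SMC2 stretch lies in exon 2 (chr9:104095466-104095513, plus strand), that of SMC4 in exon 4 (chr3:160402682-160402729, plus strand), and that of SMC5 in exon 2 (chr9:70264344-70264391, plus strand). The SMC6 stretch is split between exon 4 (chr2:17741612-17741636, minus strand) and exon 5 (chr2:17738304-17738326). The GC content of the stretch was 47.9% in SMC1A, 45.8% in SMC5, 43.75% in SMC6, 41.7% in SMC4, 39.6% in SMC2 and 31.25% in SMC3. Over whole coding regions the third codon position was 64.8% GC in SMC1A, against 30.1% in SMC4 to 38.05% in STAG1 for the other 9 genes.

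Levels are FPKM, fragments scaled to transcript length and library depth, as the authors deposited them. Sequencing depth, estimated from the values, came to 19.6 to 22.1 M fragments in the combination libraries, 23.2 to 28.2 in ceritinib, 22.6 to 24.1 in crenolanib and 23.9 to 26.5 in DMSO. At these depths the thinnest value of the 10 genes, SMC6 in a combination library, rests on an estimated 99 fragments, a counting error of 10%, and SMC3 rests on at least 532. Replicates of a group correlated across tested genes at 0.9949 to 0.9961, and the combination libraries stood apart, with correlations of 0.8838 to 0.8984 to DMSO libraries. Of 6 osteosarcoma or mesenchymal markers, VIM, SPARC and RUNX2 reached 1 FPKM in at least 1 library. RUNX2 ran only from 0.53 to 1.31 FPKM and COL1A1 from 0.26 to 0.93 FPKM, and COL1A2 and ALPL were at or near 0. None of 8 thymus markers reached 1 FPKM, with PTCRA, FOXN1 and CCL25 at 0, although the extraction text of the labels mentions thymic material.

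In the DMSO libraries the genes ranged from 5.58 FPKM for SMC6 to 41.8 FPKM for RAD21. The descending order of the means was RAD21, SMC3, SMC4, STAG2, SMC1A, SMC2, SMC5, STAG1, NIPBL and SMC6, and of these neighbours only SMC1A and SMC2 (14.5 FPKM each), and SMC5 and STAG1 (9.49 and 9.07 FPKM), overlapped in their libraries. In the combination libraries the order was RAD21, SMC4, SMC1A, SMC3, STAG1, STAG2, SMC2, SMC5, NIPBL and SMC6, with overlap between SMC4 and SMC1A and between SMC5 and NIPBL. SMC3 thus stood above SMC1A, STAG2 and SMC4 in DMSO, and above STAG2 but below SMC1A and SMC4 in the combination.

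**Figure D1:**
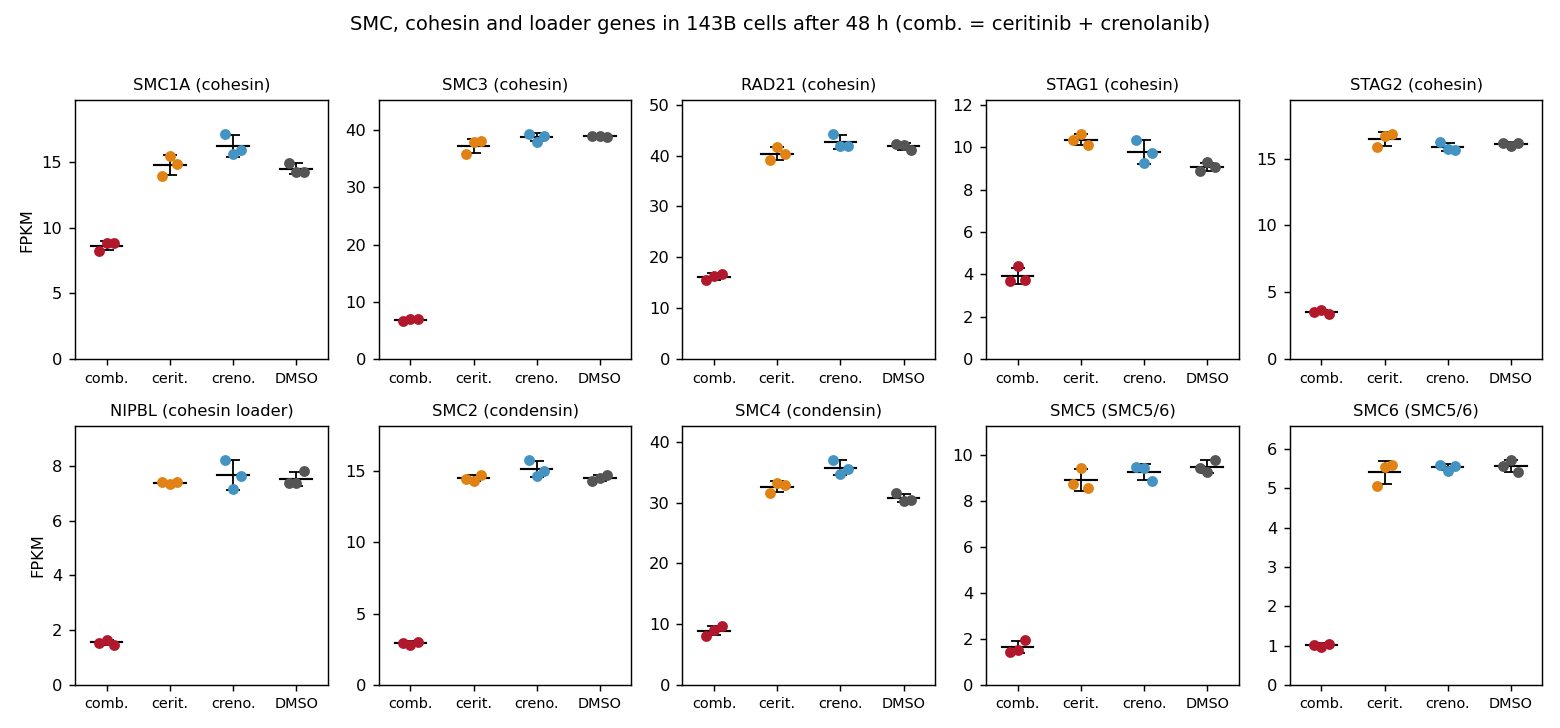
FPKM (linear axes from 0, 1 panel per gene) in each of the 12 libraries by group, with the group mean as a line and the SD as bars. For each gene the 3 combination libraries lie below all 9 others, while the ceritinib, crenolanib and DMSO libraries lie close together.

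SMC3 (ENSG00000108055.9, chr10:110567691-110604636, plus strand) is the SMC subunit of cohesin whose acetylation locks the ring on DNA. It measured 6.61, 6.94 and 6.92 FPKM in the combination libraries, 35.8, 37.9 and 38.1 FPKM in ceritinib, 39.3, 38.0 and 39.1 FPKM in crenolanib, and 39.0, 39.0 and 38.9 FPKM in DMSO. The combination libraries formed a tight low group that came nowhere near the others. The mean was 6.82 ± 0.18 FPKM in the combination and 38.96 ± 0.095 FPKM in DMSO (SD, n = 3 each), a level 5.71 times higher in DMSO. On the log2(FPKM + 1) scale used for all differences below, which understates the change of low genes, SMC3 was -2.35 (SE 0.03) against DMSO, and 0.067% of the 11944 tested genes were lower still. In a bulk library, fewer cells of a kind and less RNA per cell cannot be told apart.

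SMC1A (ENSG00000072501.17, chrX:53374149-53422728, minus strand), the partner of SMC3 in the ring, showed the smallest difference of the 10 genes. It measured 8.23, 8.88 and 8.85 FPKM in the combination libraries, 13.98, 15.4 and 14.9 FPKM in ceritinib, 17.2, 15.6 and 15.9 FPKM in crenolanib, and 14.98, 14.3 and 14.3 FPKM in DMSO. The combination libraries were again below all others, by -0.69 (SE 0.046) against DMSO on the log2 scale, a ratio of 1.68 in FPKM. Of the tested genes, 26.7% were lower than SMC1A in this comparison.

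RAD21 (ENSG00000164754.14, chromosome 8), the kleisin that closes the ring and is cut at anaphase, measured 15.5, 16.3 and 16.8 FPKM in the combination libraries. Its range was 39.2 to 41.6 FPKM in ceritinib, 41.9 to 44.2 FPKM in crenolanib and 41.1 to 42.4 FPKM in DMSO. RAD21 thus stayed the most abundant of the 10 transcripts in each group, at a level in the combination that was -1.32 (SE 0.035) from DMSO. Its exons overlap those of UTP23 on the opposite strand, which reached 5.40 FPKM, and the labels do not say whether counting used the strand.

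The paralogues STAG1 (ENSG00000118007.12, chr3:136336233-136752403, minus strand) and STAG2 (ENSG00000101972.18, chrX:123960212-124422664, plus strand) occupy the same place on cohesin. STAG2 measured 3.498, 3.68 and 3.36 FPKM in the combination libraries, against 16.2, 15.98 and 16.2 FPKM in DMSO, a difference of -1.92 (SE 0.034). STAG1 measured 3.69, 4.37 and 3.75 FPKM in the combination libraries, against 8.88, 9.28 and 9.06 FPKM in DMSO, a difference of -1.03 (SE 0.053). STAG2 was the more abundant paralogue in each DMSO library, and STAG1 in each combination library. STAG1 exons overlap those of PCCB on the opposite strand, which reached 12.2 FPKM. NIPBL (ENSG00000164190.17, chr5:36876759-37066413, plus strand), the loader, measured 1.52, 1.64 and 1.47 FPKM in the combination libraries and 7.38, 7.37 and 7.83 FPKM in DMSO, a difference of -1.74 (SE 0.047).

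Condensin's SMC2 (ENSG00000136824.18, chr9:104094260-104141417, plus strand) measured 2.95, 2.79 and 3.02 FPKM in the combination libraries and 14.3, 14.5 and 14.7 FPKM in DMSO, a difference of -1.98 (SE 0.035). Its partner SMC4 (ENSG00000113810.15, chr3:160399274-160434962, plus strand) measured 8.08, 9.01 and 9.61 FPKM in the combination libraries and 31.6, 30.3 and 30.4 FPKM in DMSO, a difference of -1.68 (SE 0.049). Both condensin ATPases were lower in the combination libraries by more than RAD21 was. SMC5 (ENSG00000198887.8, chr9:70258962-70354888, plus strand) measured 1.44, 1.53 and 1.94 FPKM in the combination libraries and 9.41, 9.26 and 9.78 FPKM in DMSO, a difference of -1.996 (SE 0.063). SMC6 (ENSG00000163029.15, chr2:17663812-17800242, minus strand) measured 1.02, 0.95 and 1.04 FPKM in the combination libraries and 5.58, 5.73 and 5.42 FPKM in DMSO, a difference of -1.71 (SE 0.041). In plain FPKM, SMC5 was 5.80 times, SMC3 5.71 times and SMC6 5.54 times higher in DMSO, so the order of these genes depends on the pseudocount of 1 used on the log2 scale. SMC4 exons overlap opposite-strand IFT80 (up to 3.14 FPKM) and TRIM59 (up to 1.17 FPKM), and SMC6 exons overlap opposite-strand GEN1 (up to 2.68 FPKM).

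In each of the 10 genes all combination libraries lay below all DMSO libraries, as in 50.8% of all tested genes. Nothing is read from this count, since the genes were chosen with this comparison known. The median difference of the 10 genes was -1.73, against -0.16 over all tested genes. Against single drugs the values were much the same, since SMC3 was -2.29 from ceritinib and -2.35 from crenolanib, and SMC1A was -0.71 from ceritinib and -0.84 from crenolanib. These comparisons share the combination libraries. The combination minus the sum of both single-drug differences ranged over the 10 genes from -2.28 for SMC3 to -0.86 for SMC1A.

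**Figure D2:**
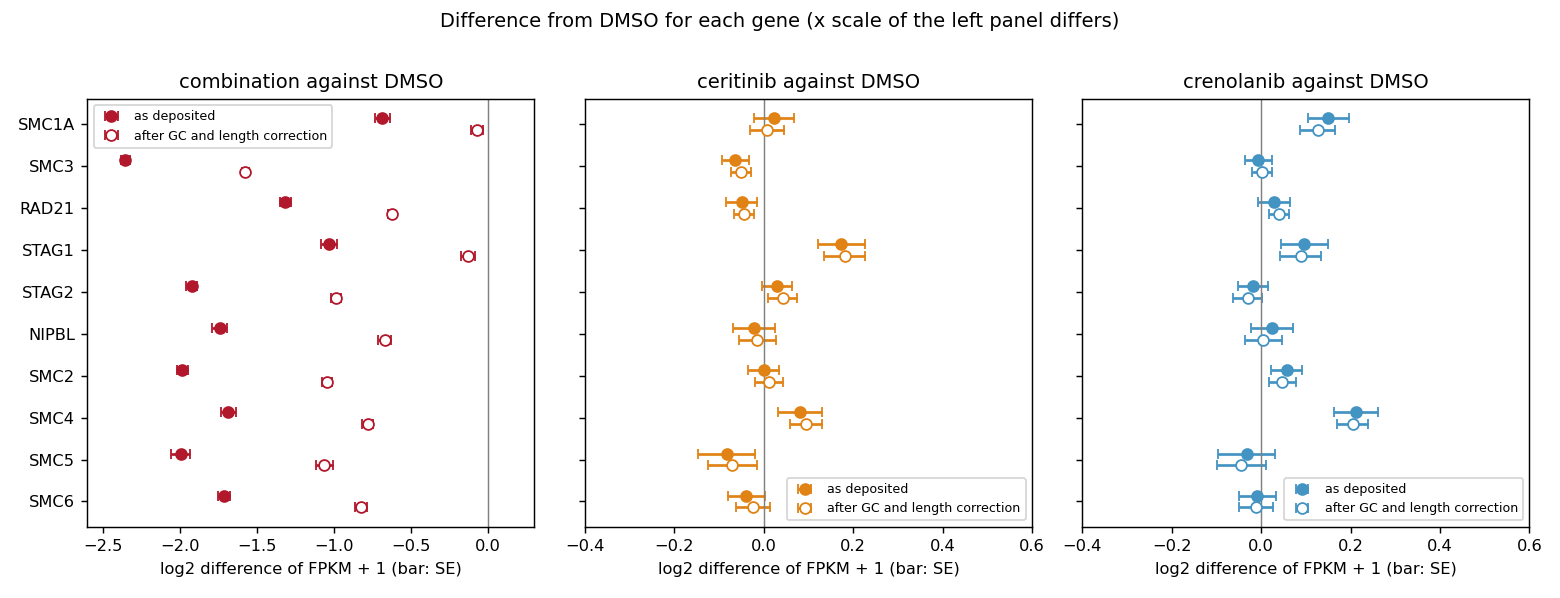
Log2 difference of FPKM + 1 from DMSO for each gene in the combination, ceritinib and crenolanib, as deposited (filled) and after the GC and length correction (open), with SE bars; the left panel has a wider axis. Combination values run from -2.35 to -0.69 as deposited, and single-drug values from -0.08 to 0.21.

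Base composition moved with these differences. In the combination libraries the deviation of genes from their DMSO mean rank-correlated with GC content at 0.662 to 0.696. The other 9 libraries, which include the DMSO libraries that make up this mean, gave -0.153 to 0.226. The 10 genes had a median transcript GC content of 38.3% and a median length of 5986 bases, against 48.4% and 3701 bases over 10565 tested protein-coding genes. SMC1A, at 47.2%, had the highest GC content of the 10 and the smallest difference, and STAG2 and SMC5, at 36.6% each, were among those with the largest. The order was not strict, since SMC3 had the largest difference at 38.9%, above the median GC content of the 10. Across the 10 genes the Spearman correlation of GC content with the combination difference was 0.673, across all tested protein-coding genes 0.679, as a description of genes measured in the same libraries. What set this trend was not tested.

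When the part of each library that follows GC content and length was taken out, a step that would also remove a true effect following them, the difference of SMC3 was -1.58 (SE 0.022), and 0.357% of tested genes were lower. SMC5, SMC2 and STAG2 came to -1.07, -1.05 and -0.99. SMC6, SMC4, NIPBL and RAD21 came to -0.83, -0.78, -0.67 and -0.63. STAG1 came to -0.13 (SE 0.046) and SMC1A to -0.07 (SE 0.038). The corrected median was -0.80 for the 10 genes and -0.01 for all tested genes. The combination minus the sum of both single-drug differences then ranged from -1.53 for SMC3 to -0.20 for SMC1A, with -0.40 for STAG1. SMC3 was the lowest and SMC1A the highest of the 10 both before and after this step.

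**Figure D3:**
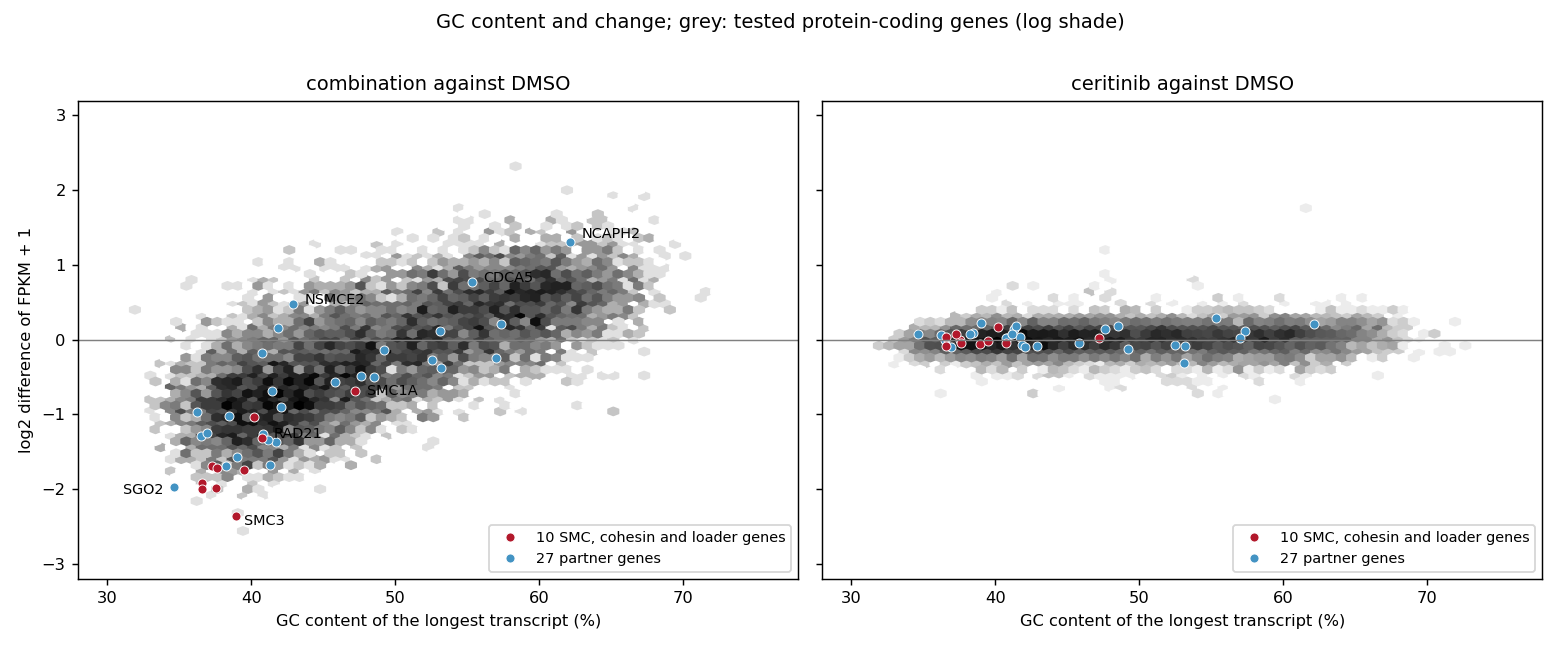
Log2 difference from DMSO (vertical, FPKM + 1) against the GC content of the longest transcript (horizontal, %) for the combination and for ceritinib; grey hexagons are tested protein-coding genes, with log shading, red points the 10 SMC, cohesin and loader genes and blue points 27 partner genes. In the combination panel the cloud tilts upward with GC content and SMC3 lies at its lower edge, while in the ceritinib panel the cloud is nearly flat (Spearman 0.679 and 0.0947).

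Ceritinib alone left most of the 10 transcripts close to DMSO. STAG1 alone passed the threshold of 0.05 (limma, Benjamini-Hochberg over all tested genes), in the higher direction, with 10.4, 10.6 and 10.1 FPKM in ceritinib, against 8.88, 9.28 and 9.06 FPKM in DMSO, and the groups did not overlap, which held in the higher direction for 28.9% of tested genes. Its difference was 0.17 (95% interval 0.06 to 0.29, limma adjusted p = 0.0228), an FPKM ratio of 1.14. This 1 of 10 compares with 36.5% of all tested genes called in either direction and 20.3% called higher. The STAG1 call ended on the TPM scale (0.11, limma adjusted p = 0.153), without the filter on low values (0.0628), and without ceritinib replicate 1, ceritinib replicate 2, DMSO replicate 1 or DMSO replicate 3 (adjusted p from 0.0547 to 0.0746).

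SMC3 did not pass the threshold under ceritinib, although its 3 ceritinib libraries, at 35.8 to 38.1 FPKM, all lay below the DMSO libraries, at 38.9 to 39.0 FPKM, as in 23.8% of tested genes. The difference was -0.06 (95% interval -0.13 to 0.00, limma adjusted p = 0.12), and it passed on the TPM scale (-0.14, adjusted p = 0.0063) and after quantile normalization (-0.11, adjusted p = 0.0175). RAD21 had a difference of -0.05 (adjusted p = 0.3), which passed on the TPM scale (-0.12, adjusted p = 0.0256). SMC4 had 0.08 and SMC5 -0.08, the widest of the other differences, and SMC1A, STAG2, NIPBL, SMC2 and SMC6 lay between -0.04 and 0.03. The 95% intervals of the 9 genes that missed the threshold ran no lower than -0.22 (SMC5) and no higher than 0.19 (SMC4).

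Under crenolanib alone the condensin ATPase SMC4 and cohesin's SMC1A rose. SMC4 measured 37.1, 34.7 and 35.6 FPKM in crenolanib, against 31.6, 30.3 and 30.4 FPKM in DMSO, a difference of 0.21 (95% interval 0.10 to 0.32, limma adjusted p = 0.00849) and an FPKM ratio of 1.16. All 3 crenolanib libraries were above all 3 DMSO libraries, as in 21.6% of tested genes, and the call held under each alternative run, with adjusted p at or below 0.0348. SMC1A, with its 15.6 to 17.2 FPKM in crenolanib, also lay wholly above its 14.3 to 14.98 FPKM in DMSO, by 0.15 (95% interval 0.05 to 0.25, limma adjusted p = 0.0311). These 2 of 10 compare with 26% of all tested genes called in either direction and 13% called higher. The SMC1A call ended on the TPM scale (0.14, limma adjusted p = 0.061), without the filter (0.0795), with a replicate block (0.0563), and without crenolanib replicate 1 (0.11, adjusted p = 0.114), crenolanib replicate 3 (0.0524), DMSO replicate 2 (0.0915) or DMSO replicate 3 (0.0927).

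SMC3 under crenolanib differed from DMSO by -0.01 (95% interval -0.07 to 0.06, limma adjusted p = 0.904), with overlapping libraries, and the sign of this small value turned with median-of-ratios scaling and after the GC and length correction. STAG1 had 0.10 (adjusted p = 0.206), with crenolanib libraries from 9.24 to 10.4 FPKM that overlapped DMSO. SMC2 had 0.06, and RAD21, STAG2, NIPBL, SMC5 and SMC6 lay between -0.03 and 0.03, none past the threshold.

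Set directly against crenolanib, ceritinib left SMC1A lower, at 13.98 to 15.4 FPKM in ceritinib, against 15.6 to 17.2 FPKM in crenolanib. The difference was -0.13 (95% interval -0.23 to -0.03, limma adjusted p = 0.0488), just past the threshold, as 1 of 10 genes beside 34.8% of all tested genes called in either direction and 15.4% called lower. SMC4 (-0.13, adjusted p = 0.0586) and RAD21 (-0.08, adjusted p = 0.109) also had all 3 ceritinib libraries below all 3 crenolanib libraries, as in 21.3% of tested genes. After the GC and length correction all 3 of these genes were past the threshold, with adjusted p of 0.0277 for SMC1A, 0.0282 for SMC4 and 0.011 for RAD21, beside a background of 19.7% called lower. SMC4 and RAD21 also passed on the TPM scale (0.0189 and 0.0195) and with median-of-ratios scaling (0.0225 and 0.0245). SMC3 had -0.06 (limma adjusted p = 0.162), with overlapping libraries. It passed on the TPM scale (0.0203) and with median-of-ratios (0.0411) or quantile scaling (0.0381). The SMC1A call was lost with a pseudocount of 0.1 (0.0534), without the filter (0.108), with a replicate block (0.0795) and in 9 of the 12 fits that left out a library, all but those without combination replicate 1, ceritinib replicate 2 or crenolanib replicate 2, with adjusted p up to 0.181.

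Ratios within a library, which no scaling of that library changes, set partner subunits against each other. SMC3 to SMC1A was 0.80, 0.78 and 0.78 in the combination libraries, 2.56, 2.45 and 2.56 in ceritinib, 2.29, 2.44 and 2.45 in crenolanib, and 2.60, 2.73 and 2.72 in DMSO. The ratio was thus below 1 in each combination library and above 2 in each of the others. In both single-drug groups it was lower than in DMSO with no overlap, by -0.09 log2 units for ceritinib and -0.17 for crenolanib, each with an exact two-sided permutation p of 0.1, the smallest that 3 against 3 libraries allow. RAD21 to SMC1A averaged 1.87 in the combination, 2.74 in ceritinib, 2.63 in crenolanib and 2.88 in DMSO, with the same p of 0.1 for each single drug by the exact permutation test. Both ratios share SMC1A, so they are not separate results. Under crenolanib SMC3 and RAD21 differed from DMSO by -0.01 and 0.03, and SMC1A by 0.15.

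STAG1 to STAG2 averaged 1.12 ± 0.067 in the combination, 0.63 ± 0.027 in ceritinib, 0.61 ± 0.026 in crenolanib and 0.56 ± 0.016 in DMSO (SD, n = 3 each). The balance of the paralogues lay above 1 in each combination library and below 1 elsewhere, and both single-drug groups lay above DMSO without overlap (exact two-sided permutation p = 0.1 each). SMC2 to SMC4 averaged 0.33 in the combination, 0.44 in ceritinib, 0.42 in crenolanib and 0.47 in DMSO, with an exact permutation p of 0.2 for ceritinib and 0.1 for crenolanib. SMC5 to SMC6 averaged 1.62 in the combination, 1.65 in ceritinib, 1.67 in crenolanib and 1.70 in DMSO, with overlapping libraries throughout. The 5 ratios gave 10 such tests, none of which can pass 0.05 in a design of this size. After the GC and length correction the log2 differences between the combination and DMSO were -1.51 for SMC3 to SMC1A, -0.56 for RAD21 to SMC1A, 0.86 for STAG1 to STAG2, -0.27 for SMC2 to SMC4 and -0.24 for SMC5 to SMC6. In plain FPKM they were -1.77, -0.62, 0.99, -0.52 and -0.08 in the same order. The corrected values come from log2(FPKM + 1), so the gap between both sets mixes the pseudocount with the correction.

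**Figure D4:**
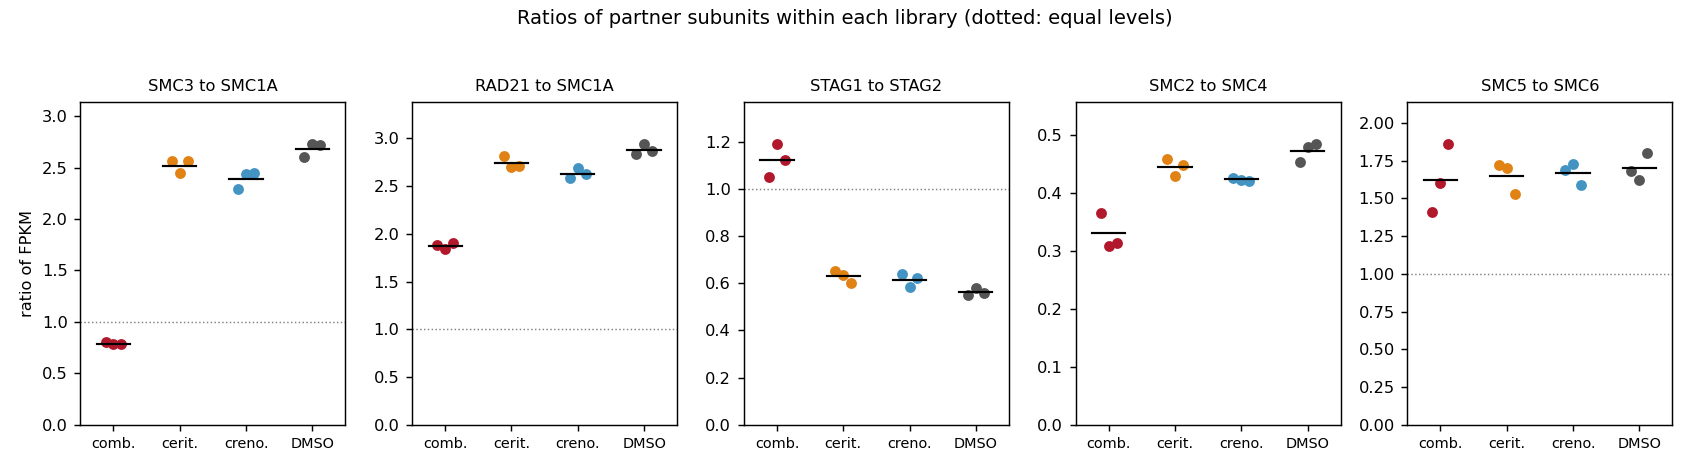
Ratio of FPKM of partner subunits (linear axes from 0) in each library by group, with group means as lines and equal levels as a dotted line. SMC3 to SMC1A lies at 0.78 to 0.80 in the combination and at 2.29 to 2.73 elsewhere, while SMC5 to SMC6 overlaps between groups.

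The proteins that regulate these rings, listed by role with earlier results of these data known, give the other genes of the pathway. Of 32 listed genes 27 were tested, and the germline subunits SMC1B, REC8, RAD21L1 and STAG3 and the SMC5/6 factor EID3 were too low. In the combination 6 were higher (background 36.8%) and 21 lower (background 50.9%) than in DMSO, with a median difference of -0.56. Of those counted lower, SLF1, ESCO2, HDAC8 and MCPH1 lay below 1 FPKM in every combination library, and ESCO1 and SGO2 in some. These genes passed the filter only through the groups where they were higher, so the count of lower genes is not free of the filter. PDS5A, which binds cohesin and tunes its release, averaged 3.0 ± 0.1 FPKM in the combination and 11.8 ± 0.17 FPKM in DMSO (SD, n = 3 each), and fell by 1.68 on the log2 scale (limma adjusted p = 3.37e-13). The SMC-like silencing factor SMCHD1 fell by 1.70 (3.83e-12), and NCAPG, a HEAT-repeat subunit of condensin I, fell by 1.57 (4.96e-12), both by limma adjusted p. SGO2, a shugoshin that shields centromeric cohesin, was lower by 1.97. Its value is a description, since it passed the filter only through the groups where it was higher. These 4 had the smallest adjusted p of the list. After the GC and length correction each was still lower, by less: SGO2 had -1.21, PDS5A -0.76, NCAPG -0.74 and SMCHD1 -0.64. Of the 27 genes 17 were called lower after correction, beside a background of 40.8%. The partner genes include thinner values than the 10 genes do, down to an estimated 27 fragments for SLF1, a counting error of 19.3%.

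Other partner genes were higher with both drugs. NCAPH2, the kleisin of condensin II, averaged 29.3 ± 1.21 FPKM in the combination and 11.2 ± 0.79 FPKM in DMSO, and rose by 1.31, or 0.61 after correction. CDCA5, or sororin, which protects acetylated cohesin from release, averaged 33.4 ± 1.56 FPKM in the combination and 19.2 ± 0.41 FPKM in DMSO, and rose by 0.77, or 0.42 after correction. NSMCE2, the SUMO ligase of the SMC5/6 complex, rose by 0.48, and 0.76 after correction. MAU2, the partner of the loader NIPBL, had 0.21 as deposited and 0.02 after correction, where its call was lost, as it was on the TPM scale (0.12). NSMCE3 rose by 0.16, or 0.91 after correction, although its call was lost on the TPM scale (0.04) and without combination replicate 1 (0.13, limma adjusted p = 0.0577). NSMCE1 had 0.11 (limma adjusted p = 0.0499) and turned to -0.21 after correction. Its call was also lost with a pseudocount of 0.1 (0.0552), without the filter (0.0936), with the 5 FPKM filter (0.0505), with the replicate block (0.0656), with robust variances (0.0509), and in 8 of the 12 fits that left out a library, with adjusted p up to 0.149. Those 8 were the fits without any 1 of the combination or DMSO libraries, ceritinib replicate 2 or crenolanib replicate 1. By role, 2 of 12 cohesin regulators were higher and 10 lower, 0 of 3 condensin I genes higher and 3 lower, 1 of 3 condensin II genes higher and 2 lower, 3 of 6 tested SMC5/6 genes higher and 3 lower, and 0 of 3 chromatin organisers higher and 3 lower. These counts stand beside 36.8% of all tested genes called higher and 50.9% called lower. The lower counts include ESCO1, ESCO2, HDAC8, SGO2, SLF1 and MCPH1, which passed the filter only through the groups where they were higher. Nothing is read from the lower counts for that reason. After correction the calls of CTCF (-0.08, limma adjusted p = 0.0558), MCPH1 (0.01, adjusted p = 0.857) and SLF1 (-0.05, adjusted p = 0.438) were lost, which left SMCHD1 alone of the chromatin organisers. HDAC8, which removes the acetyl mark of SMC3, was lower as deposited (-0.18) and higher after correction (0.68), and NCAPG2 turned likewise (-0.69 and 0.11).

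With ceritinib alone 7 partner genes rose and 2 fell (backgrounds 20.3% and 16.3%), and 5 of the 7 were condensin subunits. The remaining listed condensin subunit, NCAPD2, went the other way, at -0.07 (limma adjusted p = 0.075). It was called lower after the GC and length correction (-0.08, adjusted p = 0.0248). CDCA5 measured 22.9, 24.1 and 23.8 FPKM in ceritinib, against 19.3, 19.6 and 18.8 FPKM in DMSO, a rise of 0.29 (limma adjusted p = 0.000244). NCAPG rose by 0.22 (adjusted p = 0.00219), with 19.7 to 21.03 FPKM in ceritinib, against 16.7 to 17.6 FPKM in DMSO, and NCAPG2 of condensin II rose by 0.19 (adjusted p = 0.00452). NSMCE1, the RING subunit of the SMC5/6 complex, fell by 0.31 (adjusted p = 0.000463), at 4.76 to 5.32 FPKM in ceritinib, against 6.22 to 6.59 FPKM in DMSO. NCAPH, NCAPD3, NCAPH2 and PDS5A also rose, by 0.14 to 0.22, and securin, PTTG1, fell by 0.13, a call lost without ceritinib replicate 1 (adjusted p = 0.0633) or DMSO replicate 1 (0.0647). On the TPM scale, which lowers ceritinib libraries, CDCA5 and NCAPG alone of the 7 stayed past the threshold. The SMC ATPases of condensin did not pass it under ceritinib, with 0.00 for SMC2 and 0.08 for SMC4.

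With crenolanib alone 2 partner genes rose and 1 fell (13% of all tested genes each way). NCAPG measured 21.8, 19.8 and 21.4 FPKM in crenolanib, against 16.7, 17.6 and 17.6 FPKM in DMSO, and rose by 0.26 (limma adjusted p = 0.00121). CDCA5 rose by 0.19 (adjusted p = 0.00561), and NSMCE1 fell by 0.19 (adjusted p = 0.0154), a call that was lost without crenolanib replicate 3 or DMSO replicate 3. These 3 genes were called in the same direction under ceritinib, but both comparisons share the DMSO libraries. Between the drugs, ceritinib left NCAPD2 of condensin I lower by -0.11 (adjusted p = 0.014) and PTTG1 by -0.11 (adjusted p = 0.0306) than crenolanib, 2 of 27 partner genes beside a background of 15.4%, with 0 of 27 higher (background 19.4%). The PTTG1 call was lost with the replicate block (0.0535), without the filter (0.0661), and without ceritinib replicate 1 (0.122), ceritinib replicate 3 (0.0529) or crenolanib replicate 1 (0.107). The NCAPD2 call was lost without ceritinib replicate 3 (0.0564) or crenolanib replicate 1 (0.0553). After the GC and length correction PTTG1, NCAPD2, NSMCE1 and CTCF were lower in ceritinib (background 19.7%), and PDS5A and PDS5B higher (background 18.2%). With the replicate block added to this correction 3 partner genes were called lower and 1 higher.

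The pattern of SMC3 over the 12 libraries was close to that of many genes. As deposited, OTUD4, QSER1, SMAD5, BOD1L1 and PRPF38B had the highest Pearson correlation of log2(FPKM + 1) with SMC3, from 0.9993 to 0.9995, and 1217 of 10564 other tested protein-coding genes exceeded 0.99. OTUD4 averaged 2.20 FPKM in the combination, 8.52 in ceritinib, 8.97 in crenolanib and 8.92 in DMSO. Among the other 9 genes, SMC6 came closest, at 0.9993, and SMC1A was farthest, at 0.978. After the GC and length correction CDC123, MED1, ASAP1, HJURP and CAV1 led, 210 genes exceeded 0.99, and RAD21, STAG2, NIPBL, SMC2 and SMC6 stayed above it, while SMC1A came to 0.628 and STAG1 to 0.752. With all replicates of a group alike, such a correlation mostly restates the gap between the combination and the rest.

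The promoters of SMC3 and SMC1A are shown because of their differences with both drugs. On the log2(FPKM + 1) scale these ring partners had the largest and the smallest of the 10 genes. Each is the 250 bases before the start of transcription in RefSeq (GRCh38.p14), 5′ to 3′ on the strand of the gene, with TTTGAA and GGGCGG, read on either strand, in capitals. The SMC3 window is chr10:110567445-110567694 (plus strand) and the SMC1A window chrX:53422729-53422978 (minus strand).
SMC3: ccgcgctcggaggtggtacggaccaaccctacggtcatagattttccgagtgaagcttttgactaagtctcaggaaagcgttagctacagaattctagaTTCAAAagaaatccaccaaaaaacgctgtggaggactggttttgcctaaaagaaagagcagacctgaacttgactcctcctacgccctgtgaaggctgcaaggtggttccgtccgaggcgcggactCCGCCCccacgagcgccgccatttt
SMC1A: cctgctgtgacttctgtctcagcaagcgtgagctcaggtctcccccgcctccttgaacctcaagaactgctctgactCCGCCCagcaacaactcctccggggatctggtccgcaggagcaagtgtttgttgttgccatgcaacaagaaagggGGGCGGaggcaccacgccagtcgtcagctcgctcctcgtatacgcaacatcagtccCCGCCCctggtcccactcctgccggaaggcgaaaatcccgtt
SMC3 held 1 match to TTTGAA and 1 to GGGCGG, and SMC1A held 3 matches to GGGCGG. Of the 10 genes 9 had a promoter window, and 6 motifs were searched on both strands in windows that also take in 50 bases after the start. TTTGAA, the core of the cell-cycle homology region, was present for SMC3, SMC2 and SMC4 and in 15.2% of 35116 windows. GGGCGG, an SP1 core, was present for 7 of the 9 and in 45.0% of windows, CCAAT for STAG1 and STAG2 (34.6%), and the E2F-like TTTNNCGC for STAG1, NIPBL and SMC6 (6.89%). Neither TTCGAA (1.45%), a variant of TTTGAA, nor TATAAA (11.5%), the TATA box, was found. These matches are letters in a window, and were not compared with the changes.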

How the data were processed

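RNA sequencing of 12 libraries of 143B cells was analysed, 3 per group. Per the labels' protocols the libraries were strand-specific, and per the submitters' processing notes reads passed FastQC 0.11.2, STAR and StringTie on hg38; other versions, the annotation and the use of strand in counting are not stated there. FPKM per gene symbol is what the authors deposited. The files carry no header, so the unit was inferred: library sums ran from 244440 to 278302, not the fixed sum of TPM. An entry without a gene name was left out.

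Depth was estimated from the step in which FPKM times length piles up in genes with 1 annotated transcript. The range searched for the step was narrowed after a wider one took a fraction of the step in crenolanib replicate 3. Depths entered no test.

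The 11944 genes that reached 1 FPKM in 3 or more libraries were tested with limma 3.58.1 in R 4.3.3 on log2(FPKM + 1), with 1 mean per group, trend on and robust off. P-values were adjusted by Benjamini-Hochberg over all tested genes, with a threshold of 0.05. The GC and length correction removed splines of GC content and log2 length (natural, with 5 degrees of freedom) of the longest GENCODE 29 transcript from the deviation of each library from the mean of all 12, for 11761 genes. Subunit ratios were compared by exact permutation of libraries. The code was tested on simulated data. Promoters and their build come from RefSeq, with the window nearest the GENCODE gene start used for each gene.

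The 10 genes and all lists were chosen with earlier results of these data known. Named were the 10 genes, partner genes past the threshold (values for the 4 smallest adjusted p per comparison, and for further ones chosen after their values were seen), and the 5 protein-coding genes most correlated with SMC3. Alternatives were another pseudocount, 2 other filters, TPM, median-of-ratios and quantile scaling, the GC and length correction, a replicate block, robust variances, fits without the combination libraries and fits without each library.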

Additional observations from a re-analysis of the deposited data

Results flagged for a closer look

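For 3 genes a drug had opposite signs alone and on top of the other drug, in every library of the groups compared. This opposition of signs was not tested, and its share among all tested genes was not counted. Every SMC, cohesin and loader gene followed here lay lower in all combination libraries than in all single-drug libraries. Any of them wholly above DMSO with a single drug was therefore included. Of all tested genes, 28.9% lay wholly above DMSO with ceritinib and 21.6% with crenolanib. The 3 genes are thus not shown to be unusual. SMC1A was -0.71 (log2 of FPKM + 1) when crenolanib was added to ceritinib, and 0.15 with crenolanib alone against DMSO. STAG1 was -1.13 when ceritinib was added to crenolanib, and 0.17 with ceritinib alone against DMSO. SMC4 was -1.77 when crenolanib was added to ceritinib, and 0.21 with crenolanib alone against DMSO. The negative values hold the combination libraries, whose trend with GC content is given above. After the GC and length correction the added-drug values were -0.08 for SMC1A, -0.22 for STAG1 and -0.88 for SMC4.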

How the results depend on the processing

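Combination values of the 10 genes kept their sign under each alternative run. Their median (-1.73 as reported) came to -2.19 with a pseudocount of 0.1, to -2.26 on the TPM scale, to -1.59 with median-of-ratios and -1.58 with quantile scaling, and to -0.80 once GC content and length were corrected for, alone or with the replicate block. SMC3 (-2.35) came to -2.50, -2.62, -2.17, -2.31 and -1.58 in the same settings. The median over all tested genes, -0.16 as reported, was -0.34 on the TPM scale and -0.01 after correction. Leaving out a library gave -1.73 to -1.72 for the 10-gene median and -2.36 to -2.33 for SMC3. Corrected subunit ratios, which also carry the pseudocount, differed between the combination and DMSO by -1.51 for SMC3 to SMC1A, -0.556 for RAD21 to SMC1A, 0.856 for STAG1 to STAG2, -0.265 for SMC2 to SMC4 and -0.238 for SMC5 to SMC6. For the ratios, the pseudocount and the correction both enter the gap to plain FPKM, and their shares were not separated. The cause of the other shifts was not tested.

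Counts of the 10 genes called moved as follows. Higher with ceritinib (1) became 0 without the filter and on the TPM scale, and 0 to 1 without a library. Lower with ceritinib (0) became 2 on the TPM scale and 1 with quantile scaling. Higher with crenolanib (2) became 1 without the filter, on the TPM scale and with the replicate block, and 1 to 2 without a library. Lower in ceritinib than in crenolanib (1) became 0 with the pseudocount of 0.1, without the filter and with the replicate block, and 2 with the 5 FPKM filter and without the combination libraries. It became 4 with TPM or median-of-ratios scaling, 3 with quantile scaling or the correction, with or without the block, and 0 to 2 without a library.

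Counts of partner genes moved by over 1.5 times as follows. Higher in the combination (6) became 3 with the 5 FPKM filter and on the TPM scale, and stayed within 4 to 7 elsewhere. Lower in the combination (21) moved by less, to 15 with the 5 FPKM filter, 17 with the correction, alone or with the block, 18 with median-of-ratios scaling and 20 to 23 elsewhere. Higher with ceritinib (7) became 2, and lower with ceritinib (2) became 7, on the TPM scale, and lower became 4 with the block and correction and 1 to 3 without a library. Higher with crenolanib (2) became 4 with median-of-ratios scaling and with the correction, alone or with the block, and lower with crenolanib (1) became 2 with the correction and 0 to 1 without a library. Higher in ceritinib than in crenolanib (0) became 2 with the correction, 1 with the block and correction, and 0 to 2 without a library. Lower in ceritinib than in crenolanib (2) became 1 without the filter and with the block, 4 with TPM, median-of-ratios or quantile scaling or the correction, and 0 to 3 without a library.

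Signs turned for these differences, none of the 10 genes being past the threshold on either side. Under ceritinib SMC1A was -0.0491 (TPM) and -0.00765 (quantile), STAG2 was -0.0425 (TPM) and -0.00204 (quantile), and SMC2 was 0.0119 (correction, alone or with the block). Under crenolanib SMC3 was 0.00697 (median of ratios) and 0.0023 (correction, alone or with the block), and SMC6 was 0.00285 (median of ratios). STAG2 between ceritinib and crenolanib was -0.00458 (TPM). Without a library, the range under ceritinib was -0.00738 to 0.0601 for SMC1A, -0.0358 to 0.00336 for NIPBL and -0.0116 to 0.00876 for SMC2. Under crenolanib it was -0.0158 to 0.00843 for SMC3, -0.0222 to 0.0679 for NIPBL and -0.0255 to 0.0078 for SMC6, and between the drugs -0.0517 to 0.00826 for SMC6. The SMC5 to SMC6 ratio ranged over -0.179 to 0.0231 in the combination, -0.0825 to 0.00791 in ceritinib and -0.0619 to 0.0168 in crenolanib, each against DMSO. Partner genes that turned in the combination were HDAC8 (0.173 quantile, 0.677 correction), PTTG1 (0.0687 median of ratios), NCAPG2 (0.106 correction), NSMCE1 (-0.0279 TPM, -0.207 correction) and MCPH1 (0.00919 correction), with the same corrected values under the block.

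The labels do not say whether a replicate number marks a shared batch. Residuals of the 18 same-numbered pairs had a median correlation of -0.00115, and 1 pair exceeded 0.1. No strong shared effect was seen, but these values cannot show that libraries were unpaired. Depth limits SMC6 most among the 10 genes, with a counting error of 10% at its lowest value, and SLF1 among the partner genes, with 19.3%.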
